A study of Homo sapiens with 9 samples.

Results

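The genes described here are 8 members of the bone morphogenetic protein (BMP) pathway, chosen by name and not by their measured values: the ligands BMP2 and BMP4, the antagonist GREM1, and the target genes SMAD6, ID1, ID2, ID3 and ID4. They are 8 of the 61544 genes listed, and all 8 passed the filter on low counts and were tested together with 14727 genes in all. RNA was sequenced from HMC3 cells, an SV40 T antigen-immortalized line of human microglial origin labelled as wild type, after 6 days of treatment, with 3 libraries in each of 3 groups. Cells of the SLO group received 10 µM SBI-0206965, which inhibits autophagy, 1 µM O-151, which inhibits a DNA glycosylase, and 1 µM Lopinavir, which blocks the maturation of Lamin A. Cells of the SLO ½ group received 5, 0.5 and 0.5 µM of the same molecules, and cells of the VEH group received the solvent DMSO. The 3 molecules were given only together, so the part of each cannot be told apart, and all libraries come from 1 cell line.

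BMP ligands are secreted dimers of the transforming growth factor β superfamily. They bind pairs of type I and type II serine/threonine kinase receptors, which phosphorylate SMAD1, SMAD5 and SMAD9, and these enter the nucleus together with SMAD4. The ID genes are classical direct targets of that complex and encode helix-loop-helix proteins without a DNA-binding region, which capture E proteins and keep them from DNA, while SMAD6 encodes an inhibitory SMAD and Gremlin 1 (GREM1) is a secreted protein that binds BMP2 and BMP4 outside the cell. In the brain, ID proteins are known for holding progenitor cells in an undifferentiated state and BMP ligands for steering progenitors towards astrocytes.

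The ID genes and SMAD6 are known target genes of the pathway, whose activity was not measured here. ID1 had the highest mean TPM of the ID genes in SLO, and SMAD6 the largest fold of the members between the doses. The 250 bases before the start site are shown for ID1, ID3, ID4 and SMAD6. They are RefSeq reference sequences of GRCh38.p14, read 5′ to 3′ towards the gene, at chr20:31605039-31605288 (plus strand), chr1:23559502-23559751 (minus strand), chr6:19837120-19837369 (plus strand) and chr15:66701986-66702235 (plus strand). The RefSeq table held an entry for 7 of the 8 members. Capitals mark the letters TATAAA and CCAAT on either strand, a match on the other strand being written as TTTATA or ATTGG, and in SMAD6 the letters GTCTAGAC.
ID1: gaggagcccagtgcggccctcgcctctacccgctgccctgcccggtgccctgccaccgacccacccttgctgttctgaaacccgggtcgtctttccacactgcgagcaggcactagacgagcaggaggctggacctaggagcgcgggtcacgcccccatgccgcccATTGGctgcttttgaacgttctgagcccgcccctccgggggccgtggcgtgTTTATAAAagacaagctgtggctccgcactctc
ID3: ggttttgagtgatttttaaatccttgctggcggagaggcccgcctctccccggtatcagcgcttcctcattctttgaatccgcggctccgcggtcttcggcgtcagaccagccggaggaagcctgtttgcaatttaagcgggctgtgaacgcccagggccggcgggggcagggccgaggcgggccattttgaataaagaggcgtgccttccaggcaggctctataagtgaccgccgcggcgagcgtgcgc
ID4: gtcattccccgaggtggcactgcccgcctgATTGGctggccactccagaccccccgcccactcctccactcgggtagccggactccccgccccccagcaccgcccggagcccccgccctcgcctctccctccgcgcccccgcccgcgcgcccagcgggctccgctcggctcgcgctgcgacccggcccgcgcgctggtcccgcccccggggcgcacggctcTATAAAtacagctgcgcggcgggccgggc
SMAD6: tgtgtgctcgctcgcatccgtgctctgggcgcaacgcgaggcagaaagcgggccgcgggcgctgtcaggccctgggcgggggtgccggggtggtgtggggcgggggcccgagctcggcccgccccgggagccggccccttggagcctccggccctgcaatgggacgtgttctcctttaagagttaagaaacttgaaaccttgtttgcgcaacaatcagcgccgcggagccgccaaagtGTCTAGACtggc

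The letters TATAAA ended 25 bases before the start site of ID1, overlapping its match on the other strand, and 23 bases before that of ID4, while the window of ID3 held neither of the first pair of motifs. The letters CCAAT lay on the other strand in both ID1 and ID4, with 79 and 215 bases between it and the start. Of the 35116 promoter windows of this length, 10.7% held TATAAA and 32% held CCAAT on either strand. The window of SMAD6 held GTCTAGAC, a palindrome that SMADs are known to bind, 4 bases before the start, and 0.182% of all windows held these letters (this motif was looked for after the sequences had been read). The motif GGCGCC, another sequence that SMADs bind, was found in 16.4% of all windows and in none of these 4. Among the members not printed, a window of BMP4 held 1 match to GGCGCC and a window of GREM1 held 2. TGACG, the core of cAMP response elements, was found in 21.2% of all windows and, among these 4, in ID3. The E-box CANNTG, the kind of site that E proteins bind, was found in 61.8% of all windows and, among these 4, in ID4. The window of ID2, not printed because it overlaps an exon of another ID2 transcript, held 3 matches to CCAAT, 1 to CANNTG and none to the other motifs. These matches describe the letters only, and no binding was measured.

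Against VEH, all 8 members were higher in SLO, and 7 of 8 were higher in SLO ½, where ID2 alone was lower. In SLO against VEH, 32.9% of all tested genes were called higher, 32.1% lower and 64.9% in either direction (edgeR's quasi-likelihood test, Benjamini-Hochberg adjusted p below 0.05), and the members' median log2 fold change was 1.55 against 0.014 for all tested genes. BMP2 reached the filter only through the treated groups, so it had to be higher there. Among the 13227 genes that reached it in the VEH libraries alone, 31.1% were higher in SLO, and the other 7 members were all higher, with a median of 1.23 against -0.03. In SLO ½ against VEH, 26.7% of tested genes were called higher, 25.3% lower and 52% in either direction, and the members' median was 0.67 against 0.015 (0.66 without BMP2). Between the doses, 7 members were higher in SLO than in SLO ½, where 20.8% of tested genes were called higher, 20.3% lower and 41.1% in either direction, and GREM1 was not called. The CPM of the 3 libraries of a group lay entirely above or below those of the other group for all 8 members in SLO against VEH (33.7% of tested genes lay above and 33% below), for all 8 in SLO ½ against VEH (30% and 28.4%), and for 7 in SLO against SLO ½ (25.4% and 25.6%). The comparisons with VEH use the same 3 VEH libraries and are not independent of each other. The labels do not say whether the replicates were separate cultures, so the p-values measure only the spread between these libraries. In bulk RNA, a larger share of cells that express a gene and more RNA per cell cannot be told apart.

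The 9 libraries held 14834295 to 19674841 reads on genes and were scaled with factors of 0.968 to 1.035. Levels below are CPM, a gene's reads divided by the scaled size of the library, and levels of different genes are compared only in the authors' TPM, which are also divided by gene length. Of 17 microglial markers, 3 passed the filter, among them CSF1R and TREM2, and the other 14 had under 10 counts in every library. Among the latter, P2RY12, TYROBP, GPR34, C1QA, C1QB and C1QC were at 0 in all 9. CSF1R had 2 to 15 counts in a library and TREM2 4 to 20, and both reached the filter only through the treated groups, so no change is read from them. Of 8 mesenchymal and fibroblast markers, 5 passed, led by VIM (1728 TPM in VEH) and COL1A1 (1237 TPM), and their sum was 3172 to 3313, 3571 to 3633 and 3540 to 3696 TPM in VEH, SLO ½ and SLO. In SLO against VEH, 3 of the 5 were higher and 2 lower, the latter being VIM (log2 fold change -0.12, adjusted p = 0.0108 by edgeR) and PDGFRB (-0.28, adjusted p = 2.09e-05). The part of these shifts in the results below was not tested.

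**Figure D1:**
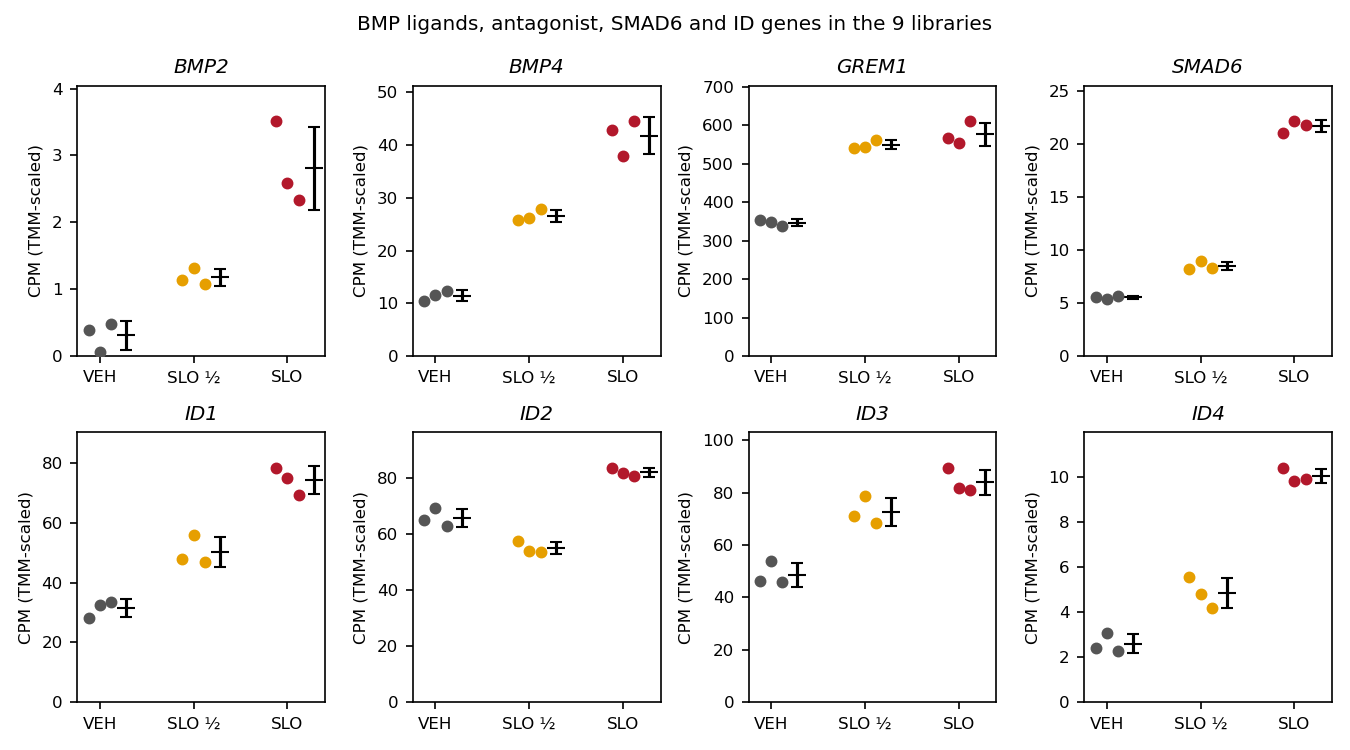
TMM-scaled CPM (linear axes from 0, 1 panel per gene) of the 8 members in each of the 9 libraries, by group, with 1 point for each library and the group mean ± SD beside the points. All 3 SLO libraries lie above all 3 VEH libraries for every member, and ID2 is the member whose SLO ½ libraries lie below VEH.

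Both ligands were higher in SLO ½ than in VEH and higher still in SLO, and BMP2 was the member with the lowest TPM and the largest fold. Since BMP2 reached the filter only through the treated groups, its direction against VEH was fixed in advance. Its separation from VEH, intervals and adjusted p against VEH are therefore given as description only. BMP2 (ENSG00000125845.7, chr20:6767686-6780246), which drives bone and heart development, had 6, 1 and 9 counts in the VEH libraries, 20, 23 and 18 in SLO ½ and 58, 44 and 35 in SLO. In CPM these were 0.381, 0.0657 and 0.470 in VEH, 1.14, 1.32 and 1.08 in SLO ½ and 3.51, 2.59 and 2.33 in SLO. The groups did not overlap and rose in the order VEH, SLO ½, SLO, but BMP2 stayed near the limit of detection in VEH. Its log2 fold change was 1.86 (95% interval 1.04 to 2.68, adjusted p = 0.000267 by edgeR) in SLO ½ and 3.12 (2.43 to 3.80, adjusted p = 2.80e-09) in SLO, with 1.25 (SE 0.250, adjusted p = 0.000167) between the doses. On log2(TPM + 1) values in limma the same changes of BMP2 were 0.86 and 1.75, and without 1 library in turn the change in SLO lay between 2.69 and 3.60.

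BMP4 (ENSG00000125378.16, chr14:53949736-53958761), a close relative of BMP2 that patterns mesoderm and the dorsal neural tube, was the ligand with the higher TPM. It had 10.4, 11.6 and 12.4 CPM in the VEH libraries, 25.7, 26.1 and 27.9 in SLO ½ and 42.9, 37.9 and 44.5 in SLO. The 3 groups were fully separated, and the gaps between them were wider than the spread within any of them. Relative to VEH, BMP4 was 2.31-fold higher in SLO ½ (log2 fold change 1.21, SE 0.0834, adjusted p = 8.63e-13 by edgeR) and 3.63-fold higher in SLO (1.86, SE 0.0790, adjusted p = 4.35e-18). The log2 difference between the doses was 0.65 (SE 0.0684, adjusted p = 8.48e-09). An unnamed long non-coding gene that overlaps BMP4, ENSG00000287156, had at most 12 counts in any library, against 164 or more for BMP4.

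GREM1 (ENSG00000166923.12, chr15:32718004-32745106), the antagonist, was the member with the most reads, though not with the highest level per length. The VEH libraries held 354, 349 and 338 CPM, the SLO ½ libraries 542, 544 and 563, and the SLO libraries 568, 554 and 611. Both treated groups lay above VEH without overlap, whereas the SLO ½ and SLO libraries overlapped. The log2 fold change against VEH was 0.66 (SE 0.0416, adjusted p = 1.03e-13 by edgeR) in SLO ½ and 0.74 (SE 0.0417, adjusted p = 3.16e-15) in SLO. Between the doses GREM1 differed by 0.07 on the log2 scale (95% interval -0.01 to 0.16, adjusted p = 0.174), so a difference of more than that upper bound lies outside the interval. On the log2 scale, 90.3% of the change of GREM1 in SLO was present in SLO ½, the highest share among the members.

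SMAD6 (ENSG00000137834.15, chr15:66702236-66782849) encodes the inhibitory SMAD that acts mainly on BMP receptors and is itself induced by BMP signals. Its CPM were 5.52, 5.38 and 5.64 in VEH, 8.18, 8.92 and 8.33 in SLO ½ and 21.1, 22.1 and 21.8 in SLO. No groups overlapped, and the step from SLO ½ to SLO was larger than the step from VEH to SLO ½. The log2 fold change was 0.62 (SE 0.109, adjusted p = 2.30e-05 by edgeR) for SLO ½ against VEH, 1.35 (SE 0.0858, adjusted p = 3.65e-13) for SLO against SLO ½ and 1.97 (SE 0.0937, adjusted p = 5.48e-17) for SLO against VEH. Only 31.3% of its log2 change in SLO was present in SLO ½, the lowest share among the 7 members that moved the same way at both doses. SMAD6 was in the 99.5th percentile of the tested genes by log2 fold change between the doses.

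ID1 (ENSG00000125968.9, chr20:31605283-31606515), which restrains differentiation in many cell types, had 28.3, 32.6 and 33.6 CPM in VEH, 47.9, 55.8 and 46.9 in SLO ½ and 78.3, 74.9 and 69.1 in SLO. The groups rose in that order without overlap. ID1 was 1.59-fold higher in SLO ½ (log2 fold change 0.67, SE 0.0703, adjusted p = 4.28e-09 by edgeR) and 2.35-fold higher in SLO (1.23, SE 0.0678, adjusted p = 1.63e-15), with 0.56 between the doses (SE 0.0635, adjusted p = 3.12e-08).

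ID3 (ENSG00000117318.9, chr1:23557926-23559501), which acts alongside ID1 in vessels and lymphocytes, had 46.2, 54.0 and 46.0 CPM in VEH, 71.0, 78.7 and 68.5 in SLO ½ and 89.5, 81.6 and 80.8 in SLO. The groups did not overlap, but the lowest SLO library was close to the highest SLO ½ library. ID3 rose by 0.58 on the log2 scale in SLO ½ (SE 0.0614, adjusted p = 4.73e-09 by edgeR) and by 0.79 in SLO (SE 0.0610, adjusted p = 2.90e-12). Its difference between the doses was 0.21 (SE 0.0580, adjusted p = 0.00484), and 73.8% of its log2 change in SLO was present in SLO ½. The dose difference of ID3 was not called in limma on log2(TPM + 1) without a filter (0.24, adjusted p = 0.0732).

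ID4 (ENSG00000172201.12, chr6:19837370-19842197), known for its part in neural progenitor division, was the least expressed ID gene and had the largest fold among them. Its counts were 38, 47 and 44 in VEH, 98, 84 and 70 in SLO ½ and 172, 167 and 149 in SLO, or 2.41, 3.09 and 2.30, then 5.56, 4.80 and 4.19, then 10.4, 9.83 and 9.91 CPM. The 3 groups were separated from each other. ID4 was 1.88-fold higher in SLO ½ (log2 fold change 0.91, SE 0.162, adjusted p = 2.56e-05 by edgeR) and 3.89-fold higher in SLO (1.96, SE 0.144, adjusted p = 9.27e-13), and SLO exceeded SLO ½ by 1.05 (SE 0.126, adjusted p = 9.19e-08). LNC-LBCS, a long non-coding gene that overlaps ID4, had 2 to 11 counts.

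ID2 (ENSG00000115738.10, chr2:8678845-8684461), required for innate lymphoid cells and for some dendritic cells, was the member whose direction changed with the dose. Its CPM were 65.0, 69.2 and 62.8 in VEH, 57.4, 54.0 and 53.6 in SLO ½ and 83.6, 81.8 and 80.6 in SLO. Every SLO ½ library was below every VEH library, and every SLO library was above them all. ID2 fell by 0.25 on the log2 scale in SLO ½ (95% interval -0.36 to -0.15, adjusted p = 0.000102 by edgeR) and rose by 0.32 in SLO (SE 0.0483, adjusted p = 1.11e-06). The difference between the doses was 0.58 (SE 0.0490, adjusted p = 1.52e-10), close to that of ID1 although the change against VEH was the smallest of the 8 members at each dose. The antisense gene ID2-AS1, which overlaps ID2, had 38 to 83 counts in a library. Its log2 fold change was 0.25 (adjusted p = 0.296) in SLO ½ and 0.55 (adjusted p = 0.0143) in SLO, so in SLO ½ its estimate had the opposite sign to that of ID2. Counting used strand, so reads of both were kept apart as far as the library protocol marks strand.

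**Figure D2:**
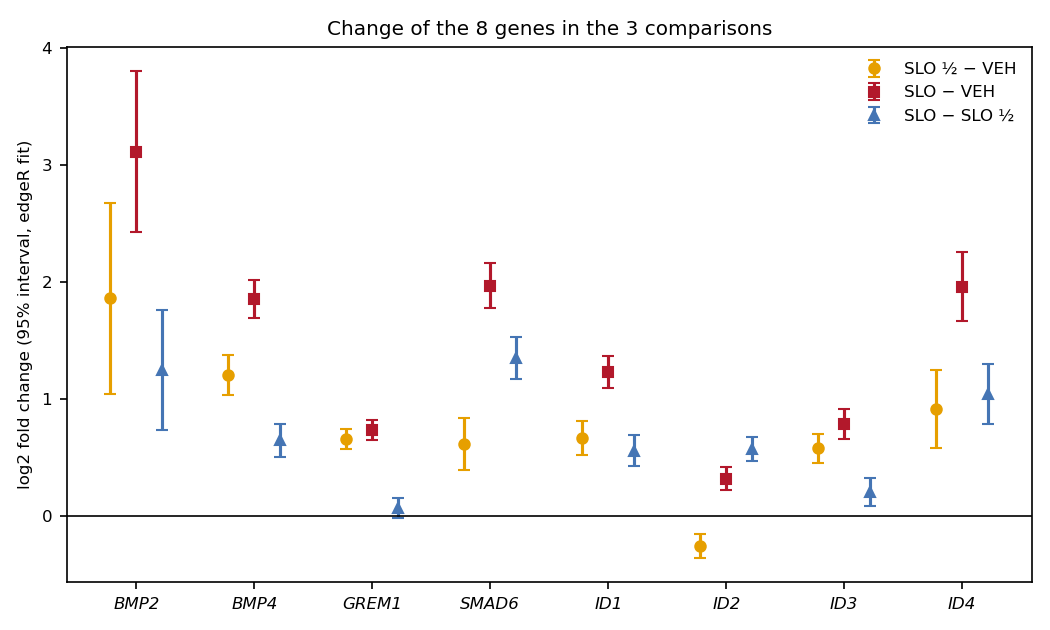
Log2 fold change with its 95% interval for each member in SLO ½ against VEH, SLO against VEH and SLO against SLO ½, from edgeR. The intervals of SLO against VEH all lie above 0, that of ID2 in SLO ½ against VEH lies below 0 (-0.36 to -0.15), and that of GREM1 between the doses spans 0.

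On a scale per length, the members ranged from under 1 TPM to over 100 TPM in VEH. In VEH the order by mean TPM was ID3 (153 ± 14.8, SD, n = 3), ID2 (140 ± 7.12), ID1 (120 ± 11.6), GREM1 (110 ± 2.19), BMP4 (17.4 ± 1.60), ID4 (3.16 ± 0.525), SMAD6 (3.03 ± 0.0733) and BMP2 (0.405 ± 0.282). The libraries of ID3 and ID2, of ID1 and GREM1, and of ID4 and SMAD6 overlapped, so these neighbours could not be ordered. In SLO ½ the order was ID3 (222 ± 12.7), ID1 (186 ± 15.0), GREM1 (170 ± 5.38), ID2 (114 ± 5.12), BMP4 (39.3 ± 2.07), ID4 (5.73 ± 0.818), SMAD6 (4.52 ± 0.143) and BMP2 (1.51 ± 0.135), and only ID1 and GREM1 overlapped. In SLO it was ID1 (281 ± 18.0), ID3 (263 ± 15.3), GREM1 (183 ± 9.47), ID2 (173 ± 3.37), BMP4 (63.2 ± 5.26), ID4 (12.1 ± 0.396), SMAD6 (11.9 ± 0.286) and BMP2 (3.71 ± 0.825). There ID1 overlapped ID3, GREM1 overlapped ID2, and ID4 overlapped SMAD6. ID2 thus stood next to ID3 at the top in VEH and below ID3, ID1 and GREM1 in SLO ½.

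**Figure D3:**
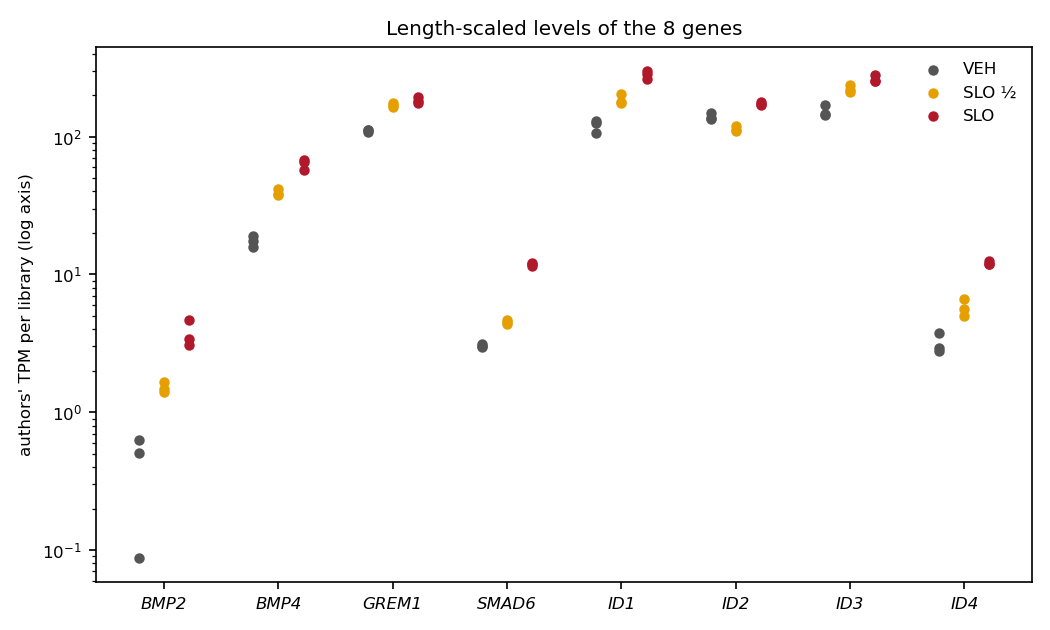
The authors' TPM (log axis) of each member in the 9 libraries, ordered by role, with 1 point for each library colored by group. BMP2 lies lowest in every group (0.405, 1.51 and 3.71 TPM on average), and ID4 and SMAD6 lie at about the same level in VEH and in SLO.

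Sums and ratios of TPM described how the members moved against each other, and no test was applied to them. The summed TPM of the 4 ID genes was 391, 447 and 411 in the VEH libraries, 523, 554 and 504 in SLO ½ and 768, 724 and 697 in SLO, and the groups did not overlap. The share of ID1 in that sum was 28.9% under VEH, 35.2% under SLO ½ and 38.5% under SLO, while the share of ID2 was 33.6%, 21.6% and 23.8%. ID3 made up 36.8%, 42.1% and 36.0%, and ID4 0.756%, 1.09% and 1.67%. ID1 therefore gained share with dose, and ID2 held a smaller share at both doses than in VEH although its own level was highest in SLO.

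The summed TPM of the ligands BMP2 and BMP4 was 17.8 ± 1.65 (SD, n = 3) under VEH, 40.8 ± 1.97 under SLO ½ and 66.9 ± 5.40 under SLO. Since GREM1 rose less than the ligands, GREM1 TPM per TPM of ligand fell from 6.24 ± 0.686 (5.53 to 6.90) under VEH to 4.17 ± 0.0841 (4.08 to 4.25) under SLO ½ and 2.74 ± 0.150 (2.59 to 2.89) under SLO, with no overlap between groups. GREM1 RNA remained more abundant than the sum of BMP2 and BMP4 in every library. That sum leaves out GDF6 (45.1, 77.4 and 105 TPM in VEH, SLO ½ and SLO), and the ratio leaves out antagonists such as NOG and CHRDL1. The ratio of SMAD6 to SMAD7, the other inhibitory SMAD, was 0.279, 0.290 and 0.437 in VEH, SLO ½ and SLO, and the ratio of SMAD6 to the sum of SMAD1 and SMAD5 was 0.0239, 0.0462 and 0.108. These ratios are of RNA and say nothing of protein amounts.

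**Figure D4:**
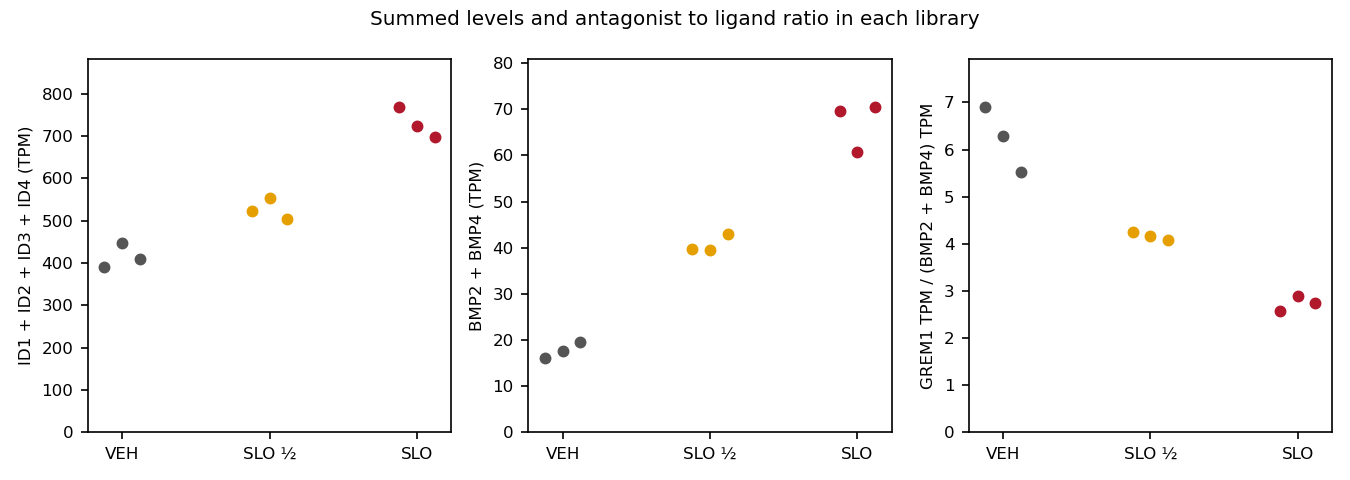
Summed TPM of the 4 ID genes, summed TPM of BMP2 and BMP4, and GREM1 TPM per TPM of the ligands by group, with 1 point for each library. The sums rise from VEH over SLO ½ to SLO, and the ratio falls from 6.24 to 4.17 and 2.74.

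Of 69 other genes of the pathway, grouped by role, 48 passed the filter and 21 did not. In SLO against VEH, 25 were higher and 17 lower, so 87.5% of those tested were called, where 64.9% of all tested genes were. In SLO ½ against VEH 19 were higher and 13 lower (66.7% called, against 52% of all tested genes). Between the doses 21 were higher and 12 lower (68.8% called, against 41.1%). Their median log2 fold change in SLO was 0.15, with 0.014 for all tested genes. Without the 4 genes that reached the filter only through the treated groups, 21 of 44 were higher and 17 lower in SLO, with a median of 0.06. In each role up to 3 genes were named by the lowest p for SLO over VEH, and further genes were chosen after their values were seen.

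Of 12 other ligand genes, 4 were tested, and GDF6 and BMP6 were called higher in SLO, as were 32.9% of all tested genes. GDF6, a BMP relative with roles in joints and the eye, rose from 35.6 CPM with VEH to 62.9 under SLO ½ and to 83.3 under SLO (log2 fold changes 0.82, adjusted p = 3.38e-12, and 1.23, adjusted p = 7.43e-17, by edgeR), a course like that of ID1. BMP6, the ligand that controls iron balance through the liver, had 6, 3 and 11 counts in VEH and 32, 14 and 13 in SLO. BMP6 reached the filter only through the treated groups, so it had to be higher there. Its log2 fold change in SLO was 1.59, 1.07 without SLO replicate 1, and 0.72 in limma on unfiltered log2(TPM + 1), where it was not called (adjusted p = 0.0567), and that in SLO ½ was 0.83 (adjusted p = 0.126 by edgeR). GDF7 had 1.37, 1.10 and 1.34 CPM under VEH, SLO ½ and SLO and was not called at either dose.

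Of 13 receptors and co-receptors, 10 were tested, with 4 higher and 2 lower in SLO, and 2 higher and 3 lower in SLO ½. The share called was 60% in SLO and 50% in SLO ½, near the 64.9% and 52% of all tested genes. The type II receptors went in opposite directions. ACVR2B fell by 1.07 on the log2 scale in SLO ½ (adjusted p = 4.75e-08 by edgeR) and by 1.37 in SLO (adjusted p = 5.25e-10), while ACVR2A rose by 0.39 (adjusted p = 0.000662) and 0.86 (adjusted p = 8.35e-10). BMPR2, the type II receptor most specific to BMPs, was at 193 CPM in VEH and 192 in SLO, but was lower in SLO ½ (log2 fold change -0.35, adjusted p = 3.43e-06) and not called in SLO. The co-receptor RGMB fell from 137 CPM to 117 and 77.9.

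All 11 SMADs and SMAD regulators were tested, and 5 were higher and 6 lower in SLO, where 64.9% of all tested genes were called. SMAD7, which like SMAD6 blocks receptor signals, rose with it, from 9.24 CPM to 13.5 at the lower dose and 23.0 at the full dose (log2 fold changes 0.55, adjusted p = 6.37e-05, and 1.31, adjusted p = 1.07e-12, by edgeR). The signal-carrying SMADs mostly did not rise. SMAD4 fell by 0.36 and 0.46 (adjusted p = 1.41e-06 and 1.02e-08), SMAD5 fell by 0.34 and 0.19 (adjusted p = 1.90e-07 and 0.000369), and SMAD1 fell by 0.24 and 0.27 (adjusted p = 0.0253 and 0.00948). Neither call of SMAD1 was kept when libraries were scaled by size only. Both were also lost in limma on unfiltered log2(TPM + 1) (adjusted p = 0.0782 in SLO ½ and 0.0584 in SLO). The SMAD1 call in SLO ½ was further lost with DESeq2 (-0.25, adjusted p = 0.0574), and at -0.20 without VEH replicate 2 or SLO ½ replicate 2. That in SLO was further lost at -0.19 without SLO replicate 2. The exception among the signal-carrying SMADs was SMAD9, at 14.6 CPM in VEH, 12.7 under SLO ½ and 23.3 under SLO. Its log2 fold changes were -0.19 (adjusted p = 0.0593 by edgeR) and 0.68 (adjusted p = 1.14e-08), a course like that of ID2. SKI, a SMAD repressor, was at 95.1 CPM in VEH and rose in SLO to 139 (log2 fold change 0.55, adjusted p = 9.99e-12). Its change in SLO ½ was 0.15 (adjusted p = 0.00635 by edgeR), a call lost in limma on TPM (0.11, adjusted p = 0.0657 with log2(TPM + 1)).

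Of 20 extracellular and membrane regulators, 13 were tested and all were called in SLO, 8 higher and 5 lower. These were 7 and 5 of the 12 that reached the filter in VEH alone. Of all tested genes, 64.9% were called in SLO, and 66.6% of those that reached the filter in VEH alone. The antagonists did not move together with GREM1. NOG, whose product Noggin binds BMP2 and BMP4, fell from 24.3 CPM to 14.3 at the lower dose and 9.08 at the full dose (log2 fold changes -0.76, adjusted p = 2.20e-08, and -1.42, adjusted p = 1.55e-13, by edgeR). CHRDL1, a chordin relative, had 207, 190 and 210 CPM in the VEH libraries and 101, 97.6 and 101 in SLO, and fell by 0.44 and 1.02 on the log2 scale (adjusted p = 1.70e-09 and 1.40e-17). BAMBI, a receptor-like protein without a kinase that dampens BMP and TGF-β signals, rose from 4.36 CPM to 14.4 and 22.5 (1.71, adjusted p = 1.75e-13, and 2.35, adjusted p = 9.78e-18).

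HTRA1, a secreted protease, had the largest change of the role lists in SLO, from 2.96 CPM with VEH to 11.1 under SLO ½ and 26.8 under SLO (log2 fold changes 1.91, adjusted p = 2.12e-12, and 3.19, adjusted p = 2.68e-19, by edgeR). BMP1, which despite its name is a protease that cleaves procollagen and chordin, rose by 0.77 and 1.38 (adjusted p = 8.98e-12 and 2.13e-18). FSTL3, a follistatin relative that binds activin, rose from 40.4 CPM to 65.2 and 98.5. FST itself, at 34.8 CPM in VEH, was higher in SLO ½ (42.8) and lower in SLO (25.7) and so went the opposite way to ID2 at each dose.

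Of 10 other target genes, 7 were tested, with 6 higher and 1 lower in SLO, where 32.9% of all tested genes were called higher and 32.1% lower. HEY1 and DLX3, at under 1 CPM in VEH, reached the filter only through the treated groups and so had to be higher. Of the 5 that reached it in VEH alone, 4 were higher and 1 lower, with a median log2 fold change of 0.76. ATOH8, a helix-loop-helix gene induced by BMP in vessels and liver, had 1.97, 2.30 and 2.92 CPM in VEH, 6.76, 7.03 and 7.01 in SLO ½ and 10.9, 11.2 and 12.0 in SLO. The groups of ATOH8 did not overlap, and its log2 fold changes were 1.51 (adjusted p = 1.20e-09 by edgeR) and 2.22 (adjusted p = 2.04e-14). The homeobox gene DLX2 rose by 0.96 (adjusted p = 5.47e-07) and 1.68 (adjusted p = 8.64e-13), and MSX1 by 0.66 and 0.76 (adjusted p = 0.00120 and 0.00018). The log2 fold change in SLO ½ was 1.10 for HEY1 and 1.98 for DLX3, and 0.46 and 0.79 in limma on unfiltered log2(TPM + 1), where neither was called (adjusted p = 0.119 and 0.0559). RUNX2, the master regulator of bone cells, was the target that fell, from 46.5 CPM to 25.8 and 19.7 (log2 fold changes -0.84, adjusted p = 5.66e-12, and -1.23, adjusted p = 1.20e-15).

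The 3 E proteins that ID proteins capture were all lower in SLO, as were 32.1% of all tested genes. TCF12 fell by 0.59 with SLO ½ and 0.88 with SLO on the log2 scale, to 82.3 CPM (adjusted p = 6.95e-13 and 4.27e-17 by edgeR), and TCF3 from 114 to 83.1 and 70.2 (-0.45, adjusted p = 7.84e-10, and -0.70, adjusted p = 4.45e-14). TCF4 changed less, by -0.26 in SLO ½ (adjusted p = 0.0777) and -0.34 in SLO (adjusted p = 0.0179). In SLO the call of TCF4 was lost without SLO replicate 2, where its change was -0.28, without VEH replicate 1 (-0.25), with scaling by library size and in limma on TPM.

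**Figure D5:**
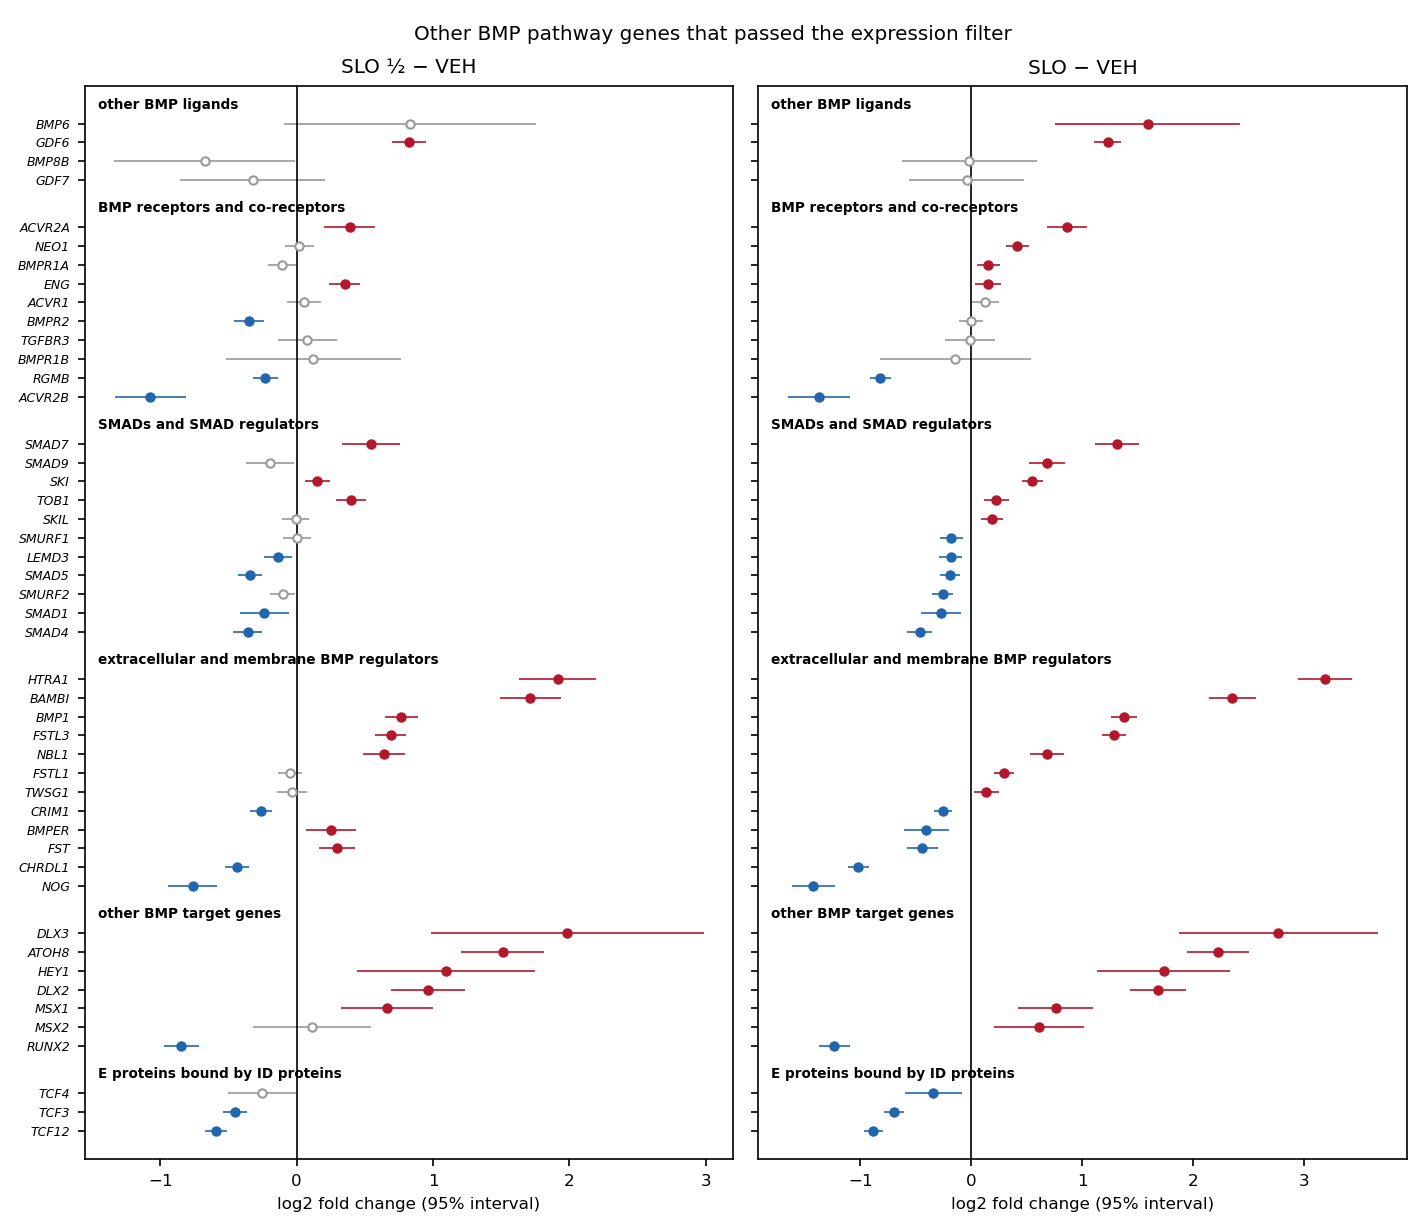
Log2 fold change with its 95% interval (x axis) of 47 of the 48 tested genes of the 6 role lists in SLO ½ against VEH (left) and SLO against VEH (right), from edgeR, in red where called higher, blue where called lower and open gray where not called. In SLO the receptors, SMADs and extracellular regulators lie on both sides of 0, 6 of the 7 other targets lie above it, and the 3 E proteins lie below it.

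For each member, the non-member genes with the most similar course were found by Pearson's correlation of log2 CPM over the 9 libraries, which fall into 3 groups and share their scaling, so that r mostly reflects the order of the group means and is given without a test. The closest were PIP5K1C (r = 0.996) and FGFR3 (0.992) for ID1, ATF7IP2 and CIDECP1 (both 0.990) for ID3, and SS18L1 (0.996) and HSPA12A (0.995) for ID4. They were CDH6 and UBE2J1 (both 0.998) for BMP4, RAB6B (0.987) for BMP2, GPC1 (0.998) and FAM177A1 (0.995) for SMAD6, and RND3 and FAS (both 0.995) for GREM1. For ID2 they were ADAM22 (0.996) and PLCE1 (0.982). An r above 0.95 was reached by 859 genes for BMP4, 645 for ID1, 649 for ID4 and 419 for ID3, and by 36 for ID2.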

How the data were processed

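RNA of HMC3 cells was measured in 9 libraries, 3 per group, with groups read from the sample labels. The authors made libraries of polyadenylated RNA with the KAPA RNA HyperPrep kit and, per the submitters' processing notes, used Trimmomatic 0.38, STAR 2.7.1a and GRCh38. The deposited counts are whole reads per gene, counted by strand and not normalized. The authors also deposited TPM, scaled for gene length and library size, used here for levels across genes. The annotation release is not given in the sources used here. The 4 summary lines of the counts were left out: 0.883% to 0.984% of reads were unmapped, 7.16% to 8.52% matched several places, 5.54% to 8.38% lay outside genes and 3.03% to 3.26% were ambiguous. Reads of near-identical copies are therefore not counted.

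The analysis ran in R 4.3.3. With edgeR 4.0.16, filterByExpr by group kept 14727 of 32299 genes with a count, libraries were scaled by TMM, and the quasi-likelihood fit took all 9 libraries with group as its only term, after a check on simulated data. Benjamini-Hochberg adjustment covered all tested genes, and an adjusted p below 0.05 was a call. Standard errors come from the log2 fold change and the F statistic, and intervals are 95%. The alternatives were DESeq2 1.42.0, other scalings and filters, only the groups compared, a replicate block, limma 3.58.1 on log2(TPM + 1) or log2(TPM + 0.1), and each library left out. Counts over only the genes that reach the filter in the VEH libraries alone were chosen after seeing the data.

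Counts of replicates differed by more than sampling noise (chi-square per degree of freedom 1.77 to 4.06), so none was counted as a duplicate. Named genes are the members, up to 3 genes per role list with the lowest p for SLO over VEH, and 2 genes per member with the most similar course at an average log2 CPM of at least 2 (prior count 2). NOG, CHRDL1, BAMBI, FST, BMPER, SMAD1, SMAD5, SMAD9, BMPR2, HEY1, DLX3 and MSX1 were named after their values were seen. Some genes of the lists, and some that meet these rules, are not reported here. The members, lists and tests were chosen with earlier results of these data known. Promoter sequences are from RefSeq (GRCh38.p14). Gene coordinates (GRCh38) are as the deposited tables list them.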

Additional observations from a re-analysis of the deposited data

Results flagged for a closer look

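Among the named genes, 6 stood out because 1 treated group lay wholly above VEH and the other wholly below it. This choice fixes the sign of their difference between the doses, so the differences are given as values, with no test. On the log2 scale, SLO minus SLO ½ was 0.58 for ID2, the only member among them, 0.69 for ADAM22, 0.60 for PLCE1 and 0.88 for SMAD9, a BMP-regulated SMAD. ADAM22 and PLCE1 were named because their course resembled that of ID2, so they add no separate evidence, and the change of SMAD9 in SLO ½ against VEH was not called (adjusted p = 0.0593 by edgeR).

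The antagonists FST and BMPER had the opposite course, higher in SLO ½ and lower in SLO, with differences between the doses of -0.73 and -0.66. For BMPER the call in SLO ½ (0.25, adjusted p = 0.0187 by edgeR) was lost with DESeq2, in limma on TPM, and without SLO ½ replicate 1 or 2, where its change was 0.20 and 0.21. The cause of these courses was not tested.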

How the results depend on the processing

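Each alternative was applied to every count of members and pathway genes, and none moved a count by more than 1.5 times, nor did keeping only genes that reach the filter in VEH alone, an alternative chosen after seeing the data. The members called higher were 7 to 8 of 8 in SLO against VEH, 6 to 7 in SLO ½ against VEH and 6 to 8 between the doses over the 10 other alternatives, the lower ends being those where a minimum of 10 counts in every library removed BMP2 or where ID3 lost its call. With 1 library left out the counts were 8, 7 and 7 throughout. GREM1 was called between the doses only when libraries were scaled by size (0.10, adjusted p = 0.0496). That scaling shifted the median of all genes to 0.0888 in SLO and 0.0652 in SLO ½ and split the calls into 5624 higher and 3870 lower in SLO (4843 and 4722 in the TMM fit) and 4637 and 3049 in SLO ½ (3936 and 3727), and in limma on log2(TPM + 1) the split in SLO ½ was 3280 and 4131. With the replicate block, 4877 genes were higher and 4745 lower in SLO, and 8 members were higher, so the block changed no call of a member, and 3 of 9 libraries correlated best with their own number. The deviations of same-numbered libraries from their group means had correlations of 0.00277 to 0.0873 over 9 pairs, under the limit of 0.1 for pairing.

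Among other named genes, values near 0 that were not called changed sign. In SLO against VEH, GDF7 was 0.0348 with library size only and -0.1779 to 0.05 with 1 library left out, and BMPR2 was 0.0736 with library size only, 0.0221 with at least 10 counts in every library, 0.0018 with only the groups compared, and -0.0584 to 0.0677 with 1 library left out. Between the doses, with 1 library left out, MSX1 lay between -0.036 and 0.1847 and SMAD1 between -0.116 and 0.0434. The causes were not tested. BMP2, BMP6, HEY1 and DLX3 rest on few reads in VEH, which limits the precision of their folds.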
